A study of Mus musculus with 6 samples.

Results

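The heat shock and cytosolic chaperone genes described here are a list of 34 genes chosen by name, of which 32 were measured among 18193 named genes, through 90 probe sets that carry exactly 1 of the member symbols. Hsp90ab1 and Hsf1 are not analysed here. The values come from pancreatic islets of 6 mice, 1 array per mouse. The 3 hIAPP_Tg mice (replicates 4, 5 and 6) carry a human IAPP transgene named Ins2-IAPP, after an insulin promoter that is active in beta cells. Which islet cells expressed the transgene was not tested. The 3 wild-type mice (replicates 1, 2 and 3) are recorded under FVB/N-Tg(Ins2-IAPP)RFHSoel/J as well, and all 6 mice were 12 weeks old and fed standard chow. The labels used here give neither sex nor litter. All values are log2 expression values on which the arrays were normalized together, and a difference is hIAPP_Tg minus wild type. Where a gene had several probe sets, the one with the highest mean over the 6 arrays stands for it.

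Heat shock proteins keep other proteins folded. Hsp70 proteins bind exposed stretches of unfolded chains, J-domain proteins bring them their clients and stimulate their ATPase, and Hsp110 proteins exchange the nucleotide, while Hsp90 takes over clients such as kinases and hormone receptors, the TRiC/CCT ring folds actin and tubulin, and small heat shock proteins hold aggregation-prone chains. When misfolded protein ties up these chaperones in the cytosol, heat shock factor HSF1 is released, binds inverted repeats of the letters GAA in promoters and induces a subset of the genes, with the inducible Hsp70 genes Hspa1a and Hspa1b at the head. IAPP itself is folded in the endoplasmic reticulum, whose own chaperones belong to a separate system.

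The islet hormone genes were near the upper end of the scale in both genotypes. Gcg, Sst and Ppy lay between 14.0 and 14.8, and Ins2 stood at the highest value of the table on all 6 arrays, where a difference could not be seen. Over all probe sets, 13 of 45037 (0.0289%) passed the test between genotypes (limma, adjusted p under 0.05). The macrophage markers were the one marker list with members past it (2 of 13 measured), and their mean was 8.61 to 8.81 on hIAPP_Tg and 7.41 to 7.57 on wild-type arrays.

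The chaperone genes differed most in the inducible Hsp70 pair, by 1.30 for Hspa1a and 1.27 for Hspa1b, followed by their partners Hsph1 (0.60) and Dnajb1 (0.50) and by the chaperonin subunit Cct5 (0.40). Without hIAPP_Tg replicate 6, Hsph1 (0.20) and Dnajb1 (0.13) were below Cct5 (0.40). The constitutive Hsp70, the Hsp90 group and most of TRiC/CCT differed by 0.10 to 0.33, and the small heat shock proteins by -0.30 to 0.20. None of the 90 chaperone probe sets passed the limma test, however (0 of 90, lowest limma adjusted p = 0.419). At an unadjusted p under 0.05, 8 of the 90 were found, against 7.33% of all probe sets. Of these, 7 were higher in hIAPP_Tg islets, against 3.82% of all, and 1 was lower, against 3.51%. All arrays of one genotype lay on one side of the other for 6 of the 90 (6.66% of all probe sets), with 6 higher (3.44% of all) and 0 lower (3.22% of all). Counted by gene, 0 of 32 passed the limma test at an adjusted p under 0.05, against 0.044% of all genes. At an unadjusted p under 0.05, 4 of 32 genes (8.48% of all genes in either direction) were called. All 4 were higher (Hspa1a, Hspa1b, Dnaja2 and Cct5), against 5.02% of all genes, and 0 were lower, against 3.45%. Hspa1a, Hspa1b and Cct5 were the 3 of 32 whose genotypes did not overlap (7.7% of all genes in either direction). All 3 were higher (4.49% of all genes) and 0 lower (3.22% of all genes).

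The differences were small and mostly of one sign. Of the 32 genes, 29 differed by more than 0 and 3 by less (Hspb1, Cryab and Hspa4l), with a median difference of 0.23. Over all 18193 genes, 48.0% lay above 0 and the median was 0. Because bright probe sets as a whole leaned upward, the members at a mean of 9 or more were also set beside all genes at that level, a limit chosen after the data were seen. There, 21 of 22 members lay above 0 with a median of 0.25, against 65.9% of 3082 genes with a median of 0.067. At that level, 2 of the 22 members were higher at an unadjusted p under 0.05 (limma), against 287 of the 3082 genes. The genotypes did not overlap, with hIAPP_Tg higher, for 1 of the 22 members, against 256 of the 3082 genes. Hspa1a (mean 7.08) and Hspa1b (mean 8.87), with the largest differences of the list, are not among these 22. Within the counts over all 32 genes, these near-identical copies are not separate evidence.

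**Figure D1:**
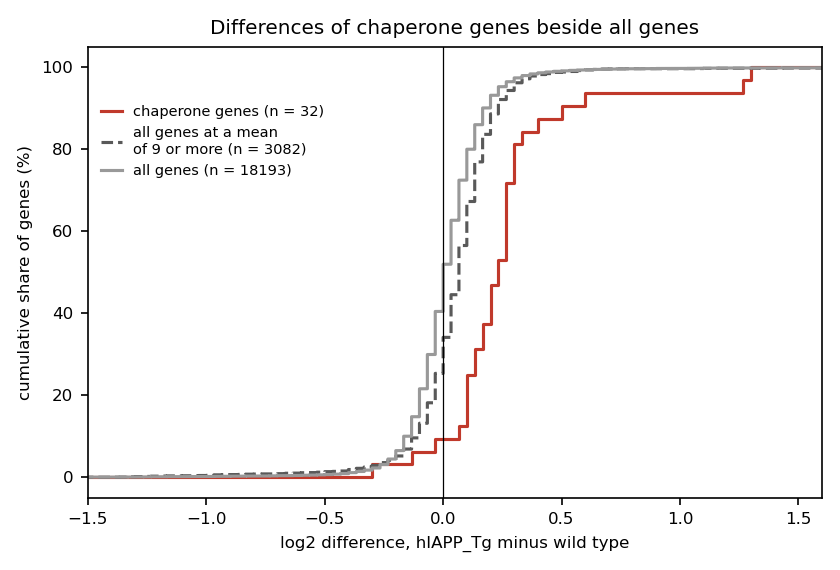
Cumulative share of genes (vertical axis, %) against the log2 difference hIAPP_Tg minus wild type (horizontal axis) for the 32 chaperone genes (red), all 3082 genes at a mean of 9 or more (dashed) and all 18193 genes (grey). The chaperone curve is shifted to the right, with a median of 0.23, and its step at the far right is Hspa1b and Hspa1a.

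Inducible Hsp70 showed the largest differences of the list. Hspa1a, which encodes the stress-inducible Hsp70, stood at 7.5, 7.2 and 8.5 on the hIAPP_Tg arrays (replicates 4, 5 and 6) and at 6.4, 6.8 and 6.1 on the wild-type arrays (replicates 1, 2 and 3). The lowest hIAPP_Tg array was thus 0.4 above the highest wild-type array, and hIAPP_Tg replicate 6 stood apart at the top. Hspa1a averaged 7.73 ± 0.68 over the hIAPP_Tg arrays and 6.43 ± 0.35 over the wild-type arrays (SD, n = 3 each), a difference of 1.30 (SE 0.36) or 2.46-fold, with a limma adjusted p of 0.503. Hspa1b, its near-identical neighbour on the chromosome, was at 9.3, 8.9 and 10.3 on the hIAPP_Tg and at 8.1, 8.8 and 7.8 on the wild-type arrays. Here the genotypes were separated by a single step of 0.1, between hIAPP_Tg replicate 5 and wild-type replicate 2. The difference was 1.27 (SE 0.41), or 2.41-fold (limma adjusted p = 0.557). The other 2 probe sets of Hspa1b differed by 1.07 and 1.23, and for the first of these hIAPP_Tg replicate 5 (7.7) lay under wild-type replicate 2 (7.9). The 4 probe sets ranked the 6 arrays almost alike, and probes for this pair may bind both transcripts. Without hIAPP_Tg replicate 6 the differences were 0.92 for Hspa1a and 0.87 for Hspa1b.

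The promoters of this pair are shown because its probe sets ranked the arrays almost alike, though at different levels. Whether the promoters have a part in this was not tested. Those of Hspe1, which holds the longest repeat, and of Hsph1 and Cct5, whose genotypes overlapped and did not overlap, follow. Each line gives the 250 bases before the start that RefSeq lists first for the gene (GRCm38.p6), 5′ to 3′ on the strand of the gene. This start need not be the outermost one. Capitals mark the core of a heat shock element, GAANNTTC or TTCNNGAA, where N is any base. Each of these reads the same on the other strand, so that both strands were searched.
Hspa1a: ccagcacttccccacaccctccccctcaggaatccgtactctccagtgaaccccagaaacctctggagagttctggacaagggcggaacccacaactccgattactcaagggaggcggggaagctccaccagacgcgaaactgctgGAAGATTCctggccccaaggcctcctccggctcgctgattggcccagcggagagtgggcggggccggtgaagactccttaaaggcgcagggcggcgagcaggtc
Hspa1b: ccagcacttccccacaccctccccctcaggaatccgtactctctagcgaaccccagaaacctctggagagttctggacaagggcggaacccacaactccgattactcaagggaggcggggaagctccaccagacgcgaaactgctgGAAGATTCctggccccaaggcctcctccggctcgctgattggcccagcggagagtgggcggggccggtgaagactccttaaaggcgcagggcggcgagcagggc
Hspe1: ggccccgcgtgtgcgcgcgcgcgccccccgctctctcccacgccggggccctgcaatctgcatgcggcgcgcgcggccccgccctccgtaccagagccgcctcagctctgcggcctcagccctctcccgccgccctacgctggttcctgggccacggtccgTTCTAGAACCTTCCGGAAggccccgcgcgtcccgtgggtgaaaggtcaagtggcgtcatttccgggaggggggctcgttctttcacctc
Hsph1: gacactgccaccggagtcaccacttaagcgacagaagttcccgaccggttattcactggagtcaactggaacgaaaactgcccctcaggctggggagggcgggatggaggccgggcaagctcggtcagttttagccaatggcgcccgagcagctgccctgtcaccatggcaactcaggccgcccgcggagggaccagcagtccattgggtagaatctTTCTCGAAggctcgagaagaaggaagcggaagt
Cct5: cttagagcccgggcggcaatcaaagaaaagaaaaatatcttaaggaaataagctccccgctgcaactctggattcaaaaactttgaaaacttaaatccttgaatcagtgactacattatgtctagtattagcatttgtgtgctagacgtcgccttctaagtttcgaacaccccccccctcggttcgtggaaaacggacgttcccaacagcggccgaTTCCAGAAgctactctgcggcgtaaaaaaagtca
The windows lie at chr17:34972157-34972406 (minus strand) for Hspa1a, chr17:34959239-34959488 (minus) for Hspa1b, chr1:55087898-55088147 (plus) for Hspe1, chr5:149636337-149636586 (minus) for Hsph1 and chr15:31601847-31602096 (minus) for Cct5. The Hspa1a and Hspa1b windows are identical at 247 of 250 positions. The 3 differences from Hspa1a to Hspa1b, with positions counted from 1 at the 5′ end of the window, are C44T, T47C and T249G, so the single match, which begins 104 bases before the start, is the same in both. In Hspe1, 3 overlapping matches run on as a longer repeat that begins 89 bases before the start, and in Hsph1 and Cct5 the single match begins 33 and 34 bases before it. Hsph1 and Cct5 have 2 listed windows each. The Hsph1 gene reaches to chr5:149636498, so part of its window, with the match, lies inside the gene. The Hspe1 window lies inside the neighbouring Hspd1 gene (chr1:55077833-55088243).

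Of the 34 members, 27 had such a window, and the first one listed for each gene was used. Hspa8, Hspa9, Hsp90aa1, Hsp90ab1, Cryab, Cct4 and Hsf1 had none. At least 1 of the 2 core forms was found in 9 of the 27 (33.3%), against 12.9% of the first windows of 27025 genes. Hspa1a and Hspa1b, whose windows are near-identical, are both among the 9. The 3-unit forms GAANNTTCNNGAA and TTCNNGAANNTTC, which contain the core forms, were found in 2 of the 27 (7.41%), Hspe1 and Dnajb6, against 0.4% of all. Hspe1 and Dnajb6 differed by 0.13 each between the genotypes. These matches describe the letters of the reference sequence and not binding.

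**Figure D2:**
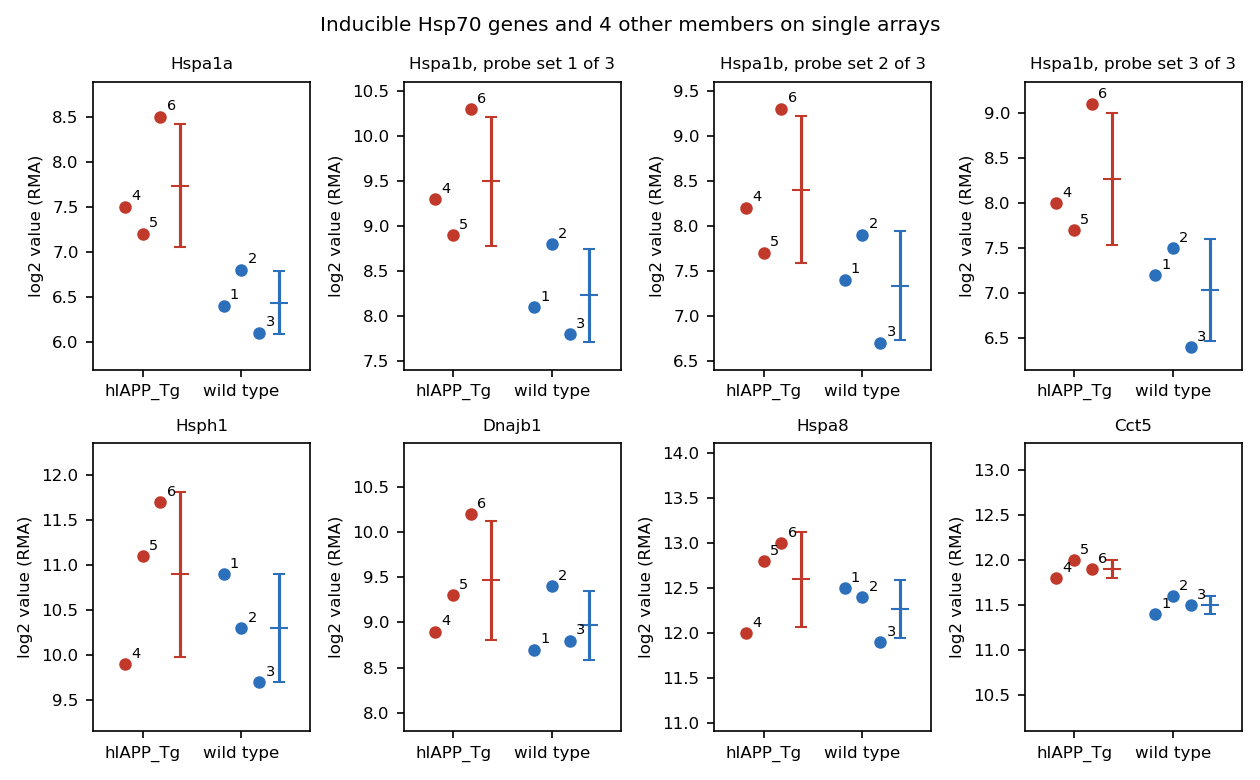
Log2 expression value (vertical axes, each spanning the same width) of Hspa1a, the 3 probe sets of Hspa1b, Hsph1, Dnajb1, Hspa8 and Cct5 on each array, with the replicate number beside each point and bars for the mean and SD of 3 arrays, hIAPP_Tg in red and wild type in blue. For Hspa1a and Cct5 all 3 hIAPP_Tg arrays lie above all wild-type arrays, while for Hsph1, Dnajb1 and Hspa8 hIAPP_Tg replicate 4 falls among the wild-type arrays.

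The other Hsp70 and Hsp110 genes overlapped between the genotypes. Hsph1, the Hsp110 that exchanges nucleotide on Hsp70, read 9.9, 11.1 and 11.7 on the hIAPP_Tg and 10.9, 10.3 and 9.7 on the wild-type arrays. It spread over 1.8 within hIAPP_Tg and over 1.2 within wild-type islets, so its difference of 0.60 (SE 0.51, limma adjusted p = 0.791) was smaller than either spread. Without hIAPP_Tg replicate 6 it was 0.20, and without hIAPP_Tg replicate 4 it was 1.10. Its second probe set differed by 0.63. Hspa8, the constitutive Hsp70 of the cytosol, was at 12.0, 12.8 and 13.0 in hIAPP_Tg against 12.5, 12.4 and 11.9 in wild-type islets, again with hIAPP_Tg replicate 4 near the bottom (difference 0.33, SE 0.29). Hspa4, another Hsp110 relative, differed by 0.20, Hspa2, an Hsp70 best known from the testis, by 0.10 and Hspa4l by -0.033. Hspa9, the Hsp70 of mitochondria, differed by 0.10 on its brightest probe set. A dimmer Hspa9 probe set differed by 0.40 and was separated, at 9.7, 10.1 and 9.8 in hIAPP_Tg and 9.4, 9.6 and 9.4 in wild-type islets, and the remaining 3 differed by 0 to 0.13.

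Among the J-domain proteins, all 5 genes differed by more than 0. Dnajb1, the main inducible partner of Hsp70, was at 8.9, 9.3 and 10.2 on the hIAPP_Tg and 8.7, 9.4 and 8.8 on the wild-type arrays. Most of its difference of 0.50 (SE 0.36, limma adjusted p = 0.769) came from replicate 6, without which it was 0.13. Dnaja2, a constitutive cytosolic member, was at 10.9, 11.3 and 11.1 in hIAPP_Tg against 10.8, 10.9 and 10.8 in wild-type islets. The genotypes touched at 10.9, and the difference was 0.27 (SE 0.11, limma adjusted p = 0.632), with its other 3 probe sets at 0.17 to 0.30. Dnajb4, Dnaja1 and Dnajb6, of which Dnajb6 is known as a strong suppressor of amyloid-type aggregation, differed by 0.27, 0.23 and 0.13, and the dimmer Dnajb6 probe sets by -0.10 to 0.

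In the Hsp90 group, Hsp90aa1, Stip1, Ahsa1 and Chordc1 were highest on hIAPP_Tg replicate 6 among hIAPP_Tg arrays and on wild-type replicate 1 among wild-type arrays, and Fkbp4 on hIAPP_Tg replicate 5 and wild-type replicate 2. Hsp90aa1, the inducible Hsp90, was at 12.0, 12.5 and 12.6 on the hIAPP_Tg and 12.5, 12.1 and 11.8 on the wild-type arrays. Wild-type replicate 1 thus matched the upper hIAPP_Tg arrays, and the difference was 0.23 (SE 0.22). Its 4 other probe sets differed by -0.17 to 0.13. The one at 4.2, 4.3 and 4.2 in hIAPP_Tg against 4.1, 4.1 and 4.1 in wild-type islets was separated, but it lies under the array median of 5.7, where values are not known to be above background. Chordc1, a stress-induced Hsp90 co-chaperone, differed by 0.30, and Stip1, which links Hsp70 to Hsp90, Ahsa1, which activates the Hsp90 ATPase, and the immunophilin gene Fkbp4 by 0.27 each. All 4 overlapped between the genotypes, and hIAPP_Tg replicate 4 was the lowest of the 3 hIAPP_Tg arrays for each.

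The small heat shock proteins had a median difference of -0.13, which without wild-type replicate 1 was 0.32. Hspb1, which encodes the small chaperone Hsp25, differed by -0.13 and Cryab, the αB-crystallin gene, by -0.30, while Hspb8, a partner of Bag3, differed by 0.20. Wild-type replicate 1 was the highest array for both genes with a difference under 0. Hspb1 was at 8.6, 8.6 and 9.4 on the hIAPP_Tg and 10.1, 8.7 and 8.2 on the wild-type arrays, and without wild-type replicate 1 its difference was 0.42. Stellate cells and fibroblasts also express Hspb1 and Cryab. Their 7 markers had a list mean of 8.71, 8.47 and 8.50 on the hIAPP_Tg arrays and of 9.23, 8.43 and 8.43 on the wild-type arrays. Of these markers, 5 (Col1a1, Col1a2, Col3a1, Dcn and Lum) were highest on wild-type replicate 1, while Pdgfrb and Acta2 were highest on hIAPP_Tg replicate 4. Pdgfrb was at 9.4, 9.1 and 9.1 on the hIAPP_Tg arrays and 9.0, 8.7 and 8.6 on the wild-type arrays. The part of these cells in the chaperone values was not tested. In whole islets, more cells of a type and more RNA per cell cannot be told apart. Bag3, which couples Hsp70 to small heat shock proteins and to autophagy and is itself an HSF1 target, was at 7.8, 8.0 and 8.2 in hIAPP_Tg against 7.8, 8.0 and 8.0 in wild-type islets.

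The chaperonins differed by small amounts in one direction. All 7 measured genes of TRiC/CCT lay above 0, from 0.10 for Cct4 to 0.40 for Cct5, with a median of 0.20. Cct5 was at 11.8, 12.0 and 11.9 on the hIAPP_Tg arrays and 11.4, 11.6 and 11.5 on the wild-type arrays. Its genotypes were separated with an SD of only 0.10 in each, and it had the smallest p of the list (difference 0.40, SE 0.082, limma adjusted p = 0.419), though no second probe set bears on it. Over the alternatives and single arrays left out, its difference stayed between 0.33 and 0.45. Tcp1, Cct2, Cct3, Cct7 and Cct8 differed by 0.17 to 0.30 and overlapped. In the mitochondrial chaperonin, Hspd1 (Hsp60) was at 11.2, 11.7 and 11.8 in hIAPP_Tg against 11.5, 11.3 and 11.0 in wild-type islets, and its lid Hspe1 (Hsp10) at 9.7, 10.2 and 10.3 in hIAPP_Tg against 10.1, 10.0 and 9.7 in wild-type islets. These adjacent genes followed each other over the arrays, and their differences were 0.30 (SE 0.19) and 0.13 (SE 0.18). Hsf2, a heat shock factor of development and stress, lay near the array median at 5.7, 5.9 and 5.8 in hIAPP_Tg against 5.8, 5.5 and 5.8 in wild-type islets. Its second, dimmer probe set was the 1 member probe set lower at an unadjusted p under 0.05 (limma), at 4.7, 4.8 and 4.7 in hIAPP_Tg against 5.1, 4.8 and 5.2 in wild-type islets. This probe set lies under the array median of 5.7, where values are not known to be above background.

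**Figure D3:**
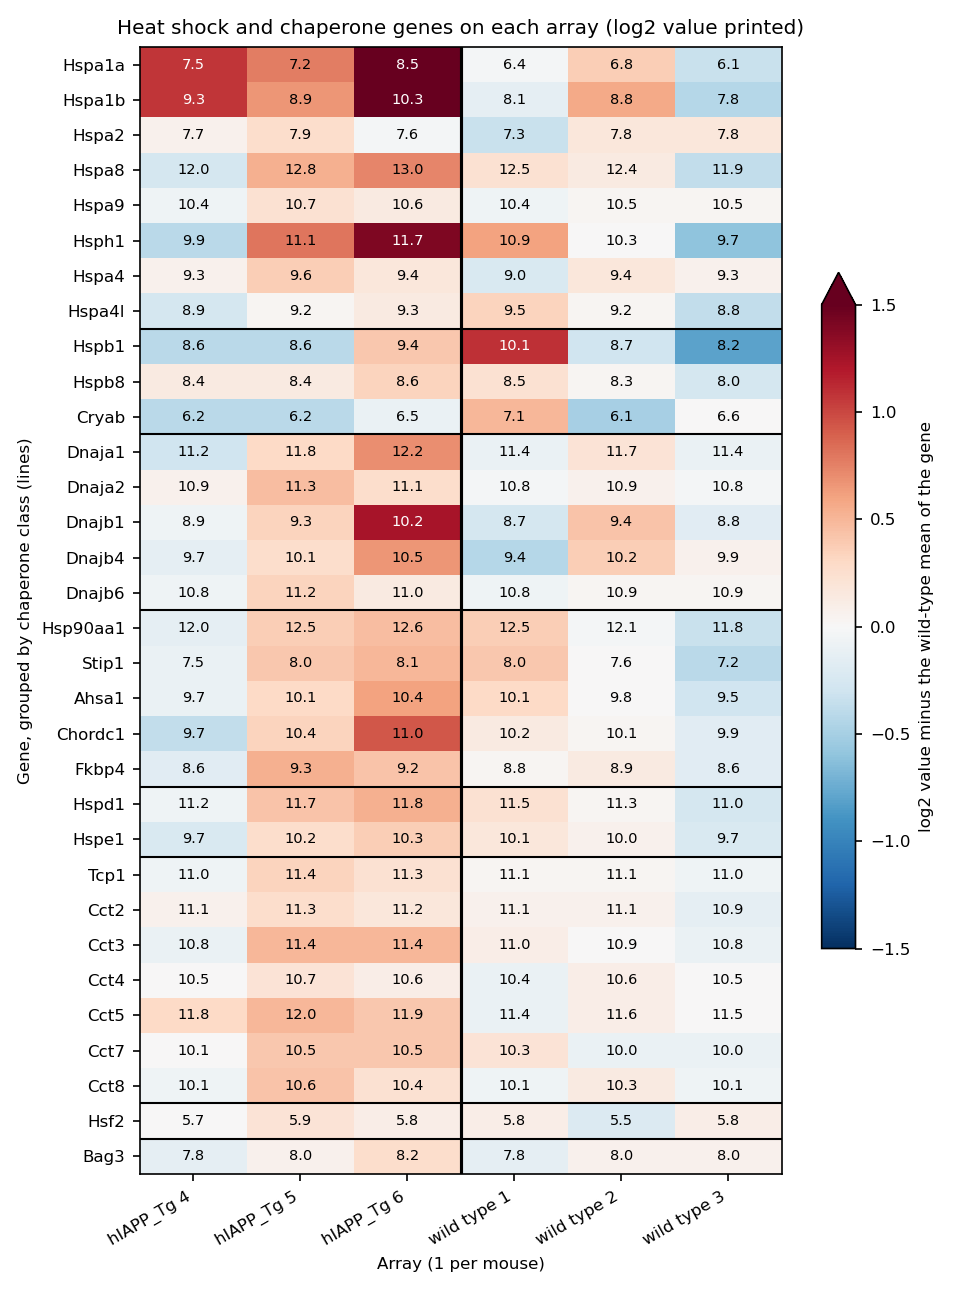
Log2 value (printed) of the brightest probe set of each of the 32 measured chaperone genes (rows, by class) on the 6 arrays (columns, hIAPP_Tg left), coloured by the value minus the wild-type mean of the gene, with the scale ending at 1.5. The columns of hIAPP_Tg 5 and 6 are mostly red, that of hIAPP_Tg 4 is pale or blue below the top rows, and that of wild type 1 is red for Hspb1, Hsph1 and Cryab.

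The shared direction was seen in 2 of the 3 hIAPP_Tg mice, and its size also depended on wild-type replicate 3. The mean over the 32 genes was 9.59, 9.95 and 10.14 on hIAPP_Tg replicates 4, 5 and 6, and 9.72, 9.70 and 9.46 on wild-type replicates 1, 2 and 3. Replicates 5 and 6 were above all wild-type arrays and replicate 4 was inside their range. By gene, replicate 5 was above every wild-type array for 22 of 32 members and replicate 6 for 25, while replicate 4 was so for 3, Hspa1a, Hspa1b and Cct5. Over all genes these shares were 20.6%, 20.2% and 17.7%. Replicate 4 was under the wild-type mean for 21 of the members, and it was alone the lowest hIAPP_Tg array for 26, against 28.2% of all genes. The highest array, ties included, was replicate 6 for 17 members, replicate 5 for 14 and wild-type replicate 1 for 3 (Hspa4l, Hspb1 and Cryab). The lowest array, ties included, was wild-type replicate 3 for 19 members, against 28.5% of all genes. It was wild-type replicate 1 for 11 (34.5%), hIAPP_Tg replicate 4 for 10 (26.2%) and wild-type replicate 2 for 3 (21.2%). Without replicate 4 the members' median difference was 0.38, and 14 of 32 were higher at an unadjusted p under 0.05 in place of 4, against 7.13% of all genes in the same fit. Without replicate 6 the median was 0.13 and 2 were higher (4.62% of all genes), and without replicate 5 there were 3 (5.05% of all genes). Leaving out wild-type replicate 1, 2 or 3 gave 2, 3 and 1 higher, against 5.4%, 7.09% and 3.91% of all genes. The members' median difference was then 0.27, 0.27 and 0.16.

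By class the same arrays stood out except among the small heat shock proteins. The TRiC/CCT mean was 10.77, 11.13 and 11.04 on the hIAPP_Tg arrays and 10.77, 10.80 and 10.69 on the wild-type arrays, a narrow wild-type range that replicate 4 shared. For Hsp90 and its co-chaperones the means were 9.50, 10.06 and 10.26 in hIAPP_Tg against 9.92, 9.70 and 9.40 in wild-type islets. The J-domain class, at 10.30, 10.74 and 11.00 in hIAPP_Tg against 10.22, 10.62 and 10.36 in wild-type islets, and the mitochondrial chaperonin, at 10.45, 10.95 and 11.05 in hIAPP_Tg against 10.80, 10.65 and 10.35 in wild-type islets, were alike in this. For Hsp70 and Hsp110, at 9.38, 9.68 and 10.05 in hIAPP_Tg against 9.26, 9.40 and 8.99 in wild-type islets, replicates 5 and 6 again were above the wild-type arrays. The members had a median range of 0.55 among the 3 hIAPP_Tg arrays and 0.40 among the 3 wild-type arrays, where that of all genes was 0.20 in each. The mean level on the hIAPP_Tg arrays was 9.89 for the members and 6.84 for all genes. Ranges were not compared at a like level.

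**Figure D4:**
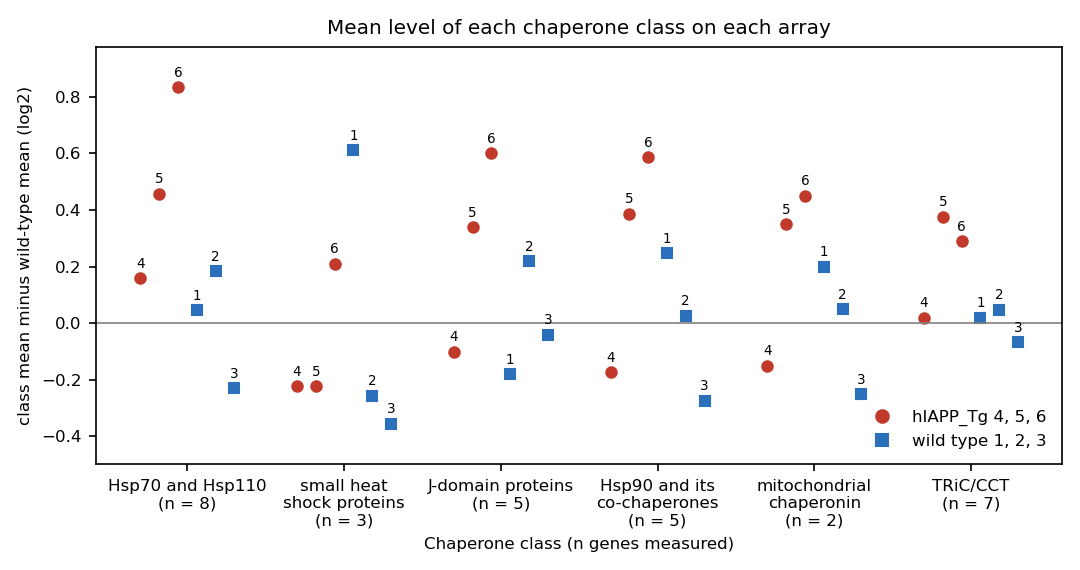
Mean log2 value of each chaperone class on each array minus the wild-type mean of that class (vertical axis), with replicate numbers beside the points, hIAPP_Tg as red circles and wild type as blue squares. In 5 of the 6 classes hIAPP_Tg 5 and 6 lie above the wild-type arrays, and among the small heat shock proteins wild type 1 is highest.

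Other lists also varied over these arrays. Acinar cells, which make the digestive enzymes, surround islets and can be carried along with them. The mean of 14 acinar markers was 11.97, 9.82 and 11.12 on the hIAPP_Tg and 10.98, 12.21 and 12.50 on the wild-type arrays. hIAPP_Tg replicate 4, whose chaperone mean was in the wild-type range, had acinar levels close to wild-type replicates 2 and 3. Wild-type replicate 3 had the highest acinar and the lowest chaperone mean of the 6 arrays, whereas the lowest acinar mean was on replicate 5 and the highest chaperone mean on replicate 6. Wild-type replicate 1 and hIAPP_Tg replicate 6 had close acinar means (10.98 and 11.12), with chaperone means of 9.72 and 10.14. The part of acinar RNA in the chaperone values was not tested. The macrophage list mean given above was higher on each hIAPP_Tg array, replicate 4 included, than on any wild-type array. Of its 13 markers, 12 lay above 0 and Fcer1g did not (-0.033). The mean of 8 beta-cell markers was 12.89, 12.70 and 12.93 in hIAPP_Tg against 13.04, 12.96 and 12.89 in wild-type islets.

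Immediate early genes, which dissociation of a tissue can switch on together with heat shock genes, had a mean of 8.03, 8.10 and 8.13 on the hIAPP_Tg and 7.82, 7.84 and 7.60 on the wild-type arrays. This list mean did not overlap between the genotypes and ranged over 0.10 among the hIAPP_Tg arrays. By gene, 6 of the 20 did not overlap, all of them higher in hIAPP_Tg, against 4.49% of all genes. Of the 20, 19 lay above 0, with a median of 0.35. At an unadjusted p under 0.05, 8 of the 20 were higher, against 5.02% of all genes, and 0 passed the limma test over all probe sets. Jun, at 9.8, 9.7 and 9.8 in hIAPP_Tg against 9.3, 9.3 and 9.0 in wild-type islets, differed by 0.57 (limma adjusted p = 0.296). The part of islet isolation in the chaperone values was not tested.

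Other genes of the chaperone network, not members, had a smaller median difference than the members, though the lists were not compared at a like level. Of 50 listed, 47 were measured, 37 lay above 0 and 10 below, and the median was 0.10. Their list mean was 8.92, 9.08 and 9.06 on the hIAPP_Tg and 8.88, 8.99 and 8.87 on the wild-type arrays. As for the members, hIAPP_Tg replicates 5 and 6 were above all wild-type arrays and replicate 4 was inside their range. At an unadjusted p under 0.05, 6 were higher and 1 was lower, against 5.02% and 3.45% of all genes, and 0 passed the limma test over all probe sets. Fkbp5, an Hsp90 co-chaperone induced by glucocorticoids, differed by 0.67, at 9.1, 9.9 and 9.4 on the hIAPP_Tg and 8.9, 8.7 and 8.8 on the wild-type arrays. Hspb6, a small heat shock protein of muscle, and Pfdn2, a subunit of the prefoldin that feeds TRiC/CCT, differed by 0.37 each. Dnajc8, a J-domain protein tied to splicing, differed by 0.20. Ttc4, an Hsp90 co-chaperone, was the lower one (-0.20). The endoplasmic reticulum chaperones Hspa5, known as BiP, and Hsp90b1, known as Grp94, differed by 0.27 and 0.067, and neither passed. The remaining TRiC/CCT subunit Cct6a differed by 0.37, at 10.8, 11.3 and 11.1 in hIAPP_Tg islets against 10.7 on each wild-type array.

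**Figure D5:**
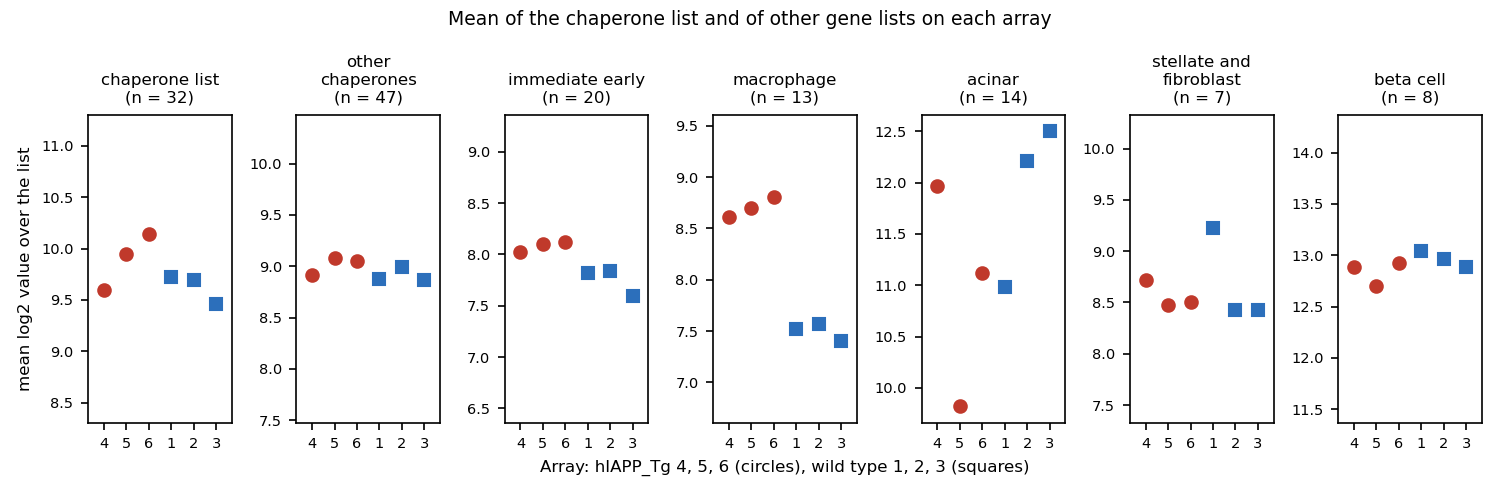
Mean log2 value (vertical axes, each spanning the same width) of the chaperone list and of 6 other gene lists on each array, hIAPP_Tg replicates 4, 5 and 6 as red circles and wild-type replicates 1, 2 and 3 as blue squares. The chaperone means overlap between the genotypes (9.59 to 10.14 in hIAPP_Tg, 9.46 to 9.72 in wild type), the macrophage and immediate early means do not, and the acinar means vary most within each genotype.

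Probe sets of one gene mostly pointed the same way. Of the 90 probe sets, 73 lay above 0, 12 below and 5 at 0, where 44.7% of all probe sets lay above 0. Among the 24 genes with several probe sets, 14 had all of them above 0, Hspb1 and Cryab had all of them below, and 8 had members on both sides or at 0. These 8 were Hspa9, Hspa4, Hspa4l, Dnajb6, Hsp90aa1, Cct4, Cct8 and Hsf2. In all, 12 of the 90 probe sets had a mean under the array median of 5.7.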

How the data were processed

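Total RNA of isolated islets (Trizol, 150 ng, biotin-labelled, per the labels' protocols) was hybridized to Affymetrix arrays. The deposited values are log2 expression values, for which the submitters' processing notes name RMA and affy without a version. They are rounded to 0.1 with a median of 5.7 on each array. RMA compresses differences near both ends of its scale. Precision is limited by having 3 arrays per genotype. Each p-value sets the genotype difference against the spread between mice of a genotype, which limma moderates with the spread of all probe sets.

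The table holds 45101 probe sets. After leaving out 64 controls, 45037 were tested by limma (version 3.58.1, under R 4.3.3), with genotype as the one term of lmFit and two-sided tests after eBayes, adjusting p by Benjamini-Hochberg over all of them at a threshold of 0.05. The script was tested on simulated data. Alternatives changed the normalization, the prior, the filter on dim probe sets, the probe set rule and the arrays included. Groups and replicate numbers come from the sample titles. Names come from the platform annotation, with 34945 probe sets carrying 1 symbol, and promoter sequences from RefSeq (GRCm38.p6). The members, lists and tests were chosen with earlier results of these data known. Values on every array were given for 10 always-listed genes where measured and for members at an unadjusted p under 0.05 or a difference of at least 0.4. Array values of other members, of second probe sets and the values of Cct6a, Jun, Hspa5 and Hsp90b1 were added after they were seen. The plots use matplotlib 3.10.9 (Python 3.11.15).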

Additional observations from a re-analysis of the deposited data

How the results depend on the processing

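No chaperone probe set passed the limma test under any setting tried: quantile normalization, median centring, only probe sets at or above the median, a trended prior, a robust prior, averaged probe sets and each array left out in turn (lowest adjusted p of a member gene 0.307). Over all probe sets, 30 passed with quantile normalization and 51 with the robust prior in place of 13, and 1 to 4 with an array left out. The cause was not tested. Leaving out arrays gave 1 to 14 member genes higher at an unadjusted p under 0.05 (14 without hIAPP_Tg replicate 4, where 7.13% of all genes were, 2 without hIAPP_Tg replicate 6, where 4.62% were, 2 without wild-type replicate 1, where 5.4% were, and 1 without wild-type replicate 3, where 3.91% were), 26 to 30 members above 0 and a median of 0.13 to 0.38. The median was 0.17 with quantile normalization and 0.16 with averaged probe sets. Signs turned with averaged probe sets for Hspa4l (0.12) and Hsf2 (-0.10). With an array left out they turned for Hspa2 (-0.067 to 0.18), Hspa4l (-0.22 to 0.13), Hspb1 (-0.53 to 0.42), Chordc1 (-0.017 to 0.63) and Bag3 (-0.033 to 0.17). No paired analysis was possible because the replicate numbers differ between the genotypes. With 3 arrays a group, rounded to 0.1, small differences cannot be resolved.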
